A study of Danio rerio with 4 samples.

Results

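The 1466 genes described here are those that the authors listed as differing between zebrafish retina 4 days after injury (4 dpi) and uninjured retina. They were taken as every entry, 1 per gene identifier, of both deposited gene tables of that comparison (higher and lower), out of 2119 genes listed anywhere in the series. RNA was sequenced from whole retinae of wild type fish aged 10 months, kept under a light-dark cycle and given no valproic acid in either group. The labels give 1 sample each for uninjured and for 4 dpi, the series design speaks of duplicates, and the tables hold 1 pooled value per gene and group. How the retina was injured, how many fish were pooled and how RNA was selected for the libraries are not stated in the labels. Each level is in FPKM (fragment counts divided by transcript length and by the total of mapped fragments), so a value is relative to the rest of the RNA of its group.

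Unlike the mammalian retina, the zebrafish retina regrows neurons after damage. Müller glia, the support cells that span the retina, lose part of their resting programme, re-enter the cell cycle and give rise to progenitors, which divide, migrate and become neurons. Microglia and macrophages gather at the site of damage, and injured ganglion cells regrow their axons.

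Of the 1466 genes, 893 (60.9%) were listed higher at 4 dpi and 573 (39.1%) were listed lower. Every count of group members by direction given below is to be read against these shares, above all where few members are listed. The difference is given as log2((4 dpi FPKM + 0.1)/(uninjured FPKM + 0.1)). Its median was 1.95 over all listed genes, 2.69 over the genes listed higher and -1.94 over those listed lower. A value of at least 3 was reached by 378 genes (25.8%), and a value of at most -2 by 254 genes (17.3%). Because the tables hold only differences that passed the authors' filter, the smallest sizes were 1.39 and -1.35. The values show that the filter kept an unadjusted p of at most 0.05 and more than 1 FPKM in the group with the higher level. Of the genes listed higher, 113 were at 0 FPKM in uninjured retina, and of those listed lower, 15 were at 0 FPKM at 4 dpi. No symbol had entries in both directions. The summed level of the genes listed higher went from 14912 FPKM in uninjured retina to 87563 FPKM at 4 dpi, and that of the genes listed lower from 27246 to 6417 FPKM. With 1 pooled value per group, no difference below has a replicate check, and no test was run. In whole tissue, fewer cells of a type and less RNA per cell cannot be told apart.

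**Figure D1:**
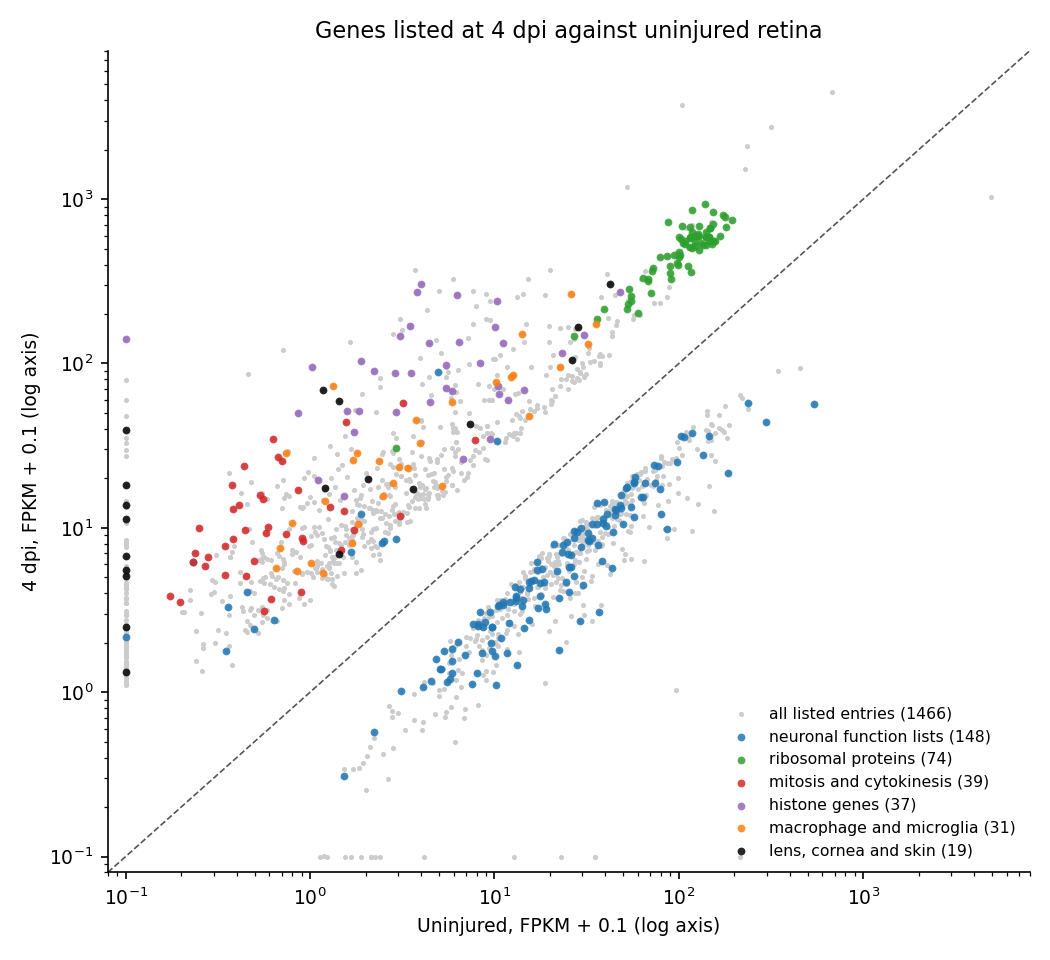
Level of each listed gene in uninjured retina (x axis) and at 4 dpi (y axis), both as FPKM + 0.1 on log axes, with 6 groups of genes coloured and the dashed line marking equal levels. Genes of mitosis, histones, ribosomal proteins, macrophages and lens lie above the line, and 134 of the 148 genes of the neuronal function lists lie below it.

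The libraries also held RNA typical of cells other than retinal neurons and glia, and its levels differed between the groups. Of 57 macrophage and microglia symbols, 31 were listed, all higher, with a summed level of 226 FPKM without injury and 1600 FPKM at 4 dpi. Of 16 neutrophil symbols, 4 were listed, all higher, with 6.70 and 120.6 FPKM in sum, of which mmp9, a protease gene that other cells also express, made up 0.363 and 85.7 FPKM. Of 83 symbols of lens, cornea and skin, 19 were listed, all higher, with 114 and 910 FPKM in sum, and 9 of the 19 were at 0 in uninjured retina. The member of highest level in both groups was icn, a cornea and skin symbol, at 42.3 and 303 FPKM. The 10 listed entries with a crystallin beta and gamma domain, not all of them in this list, summed to 4.38 and 238 FPKM. Oligodendrocyte symbols added 4 of 14, all higher (31.0 and 154 FPKM in sum). Of that sum, cnp, with a listed locus of 317 kb, made up 8.65 and 60.0 FPKM. The authors' log2 fold change of cnp was 2.79, and dividing it by their test statistic gave a standard error of 5.17. The p-value of cnp in the authors' deposited table, 0.04955, does not follow from this ratio. Another of the 4, olig2, also belongs to the list of regeneration and progenitor transcription factors. Endothelial and pericyte symbols added 3 of 23, 2 higher and 1 lower (25.8 and 35.6 FPKM in sum), so this sum joins opposite differences. The member listed lower was rgs5a, at 23.3 FPKM without injury and with a log2 difference of -1.57. None of the 13 symbols of the red blood cell list and none of the 19 of the muscle list was listed. Muscle-type genes outside that list were present, however. The troponin gene tnni2a.2 (143 and 38.6 FPKM) and the myosin heavy chain gene myh6 (1.74 and 0.245 FPKM) were both listed lower. As for the labelled tissue, photoreceptor genes such as impdh1a (238 FPKM) and guca1d (165 FPKM) were present in uninjured retina, while the visual opsins were not among the listed genes and are not described here. The part of these other cells in the differences below was not tested.

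In the lists of replication, mitosis, repair and chromatin proteins combined, 80 of 81 listed entries were higher, against 60.9% of all listed genes. Of 83 symbols of mitosis and cytokinesis, 39 were listed, all higher. A log2 difference of at least 3 was reached by 32 of the 39, and by 378 of the 893 genes listed higher (25.8% of all listed genes). The median log2 difference of the 39 entries was 4.31. The median was 2.71 with a pseudocount of 1, and 2.76 with at least 1 FPKM required in both groups. In uninjured retina they lay between 0.0747 and 7.77 FPKM, and at 4 dpi between 3.0 and 57.4 FPKM. For mki67, which encodes a nuclear protein of cycling cells, the level was 0.339 FPKM without injury and 23.6 FPKM at 4 dpi. The mitotic cyclin gene ccnb1 stood at 0.277 and 18.2 FPKM, and kpna2, which encodes a nuclear import receptor, at 0.530 and 34.8 FPKM. These 3 genes were below 1 FPKM in uninjured tissue and above 18 FPKM at 4 dpi. For top2a, the topoisomerase that untangles chromosomes, the values were 0.567 and 26.8 FPKM, and for aspm, a spindle pole protein, 0.149 and 9.82 FPKM. The highest level at 4 dpi in the list belonged to ccnd1, the cyclin that drives entry into the cycle, with 3.09 FPKM without injury and 57.4 FPKM at 4 dpi. In the authors' deposited table mki67 had p = 0.00025 and q = 0.135, ccnb1 had p = 0.0257 and q = 0.999, and no gene of the list was marked significant. Their ratio of fold change to test statistic gave a standard error of 0.97 for the log2 fold change of mki67 and 1.76 for that of ccnb1.

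DNA replication showed the same direction with smaller differences. Of 56 symbols, 21 entries were listed, all higher, with a median of 3.07 (3.05 without dscc1, which was at 0 in uninjured retina). The helicase subunit gene mcm2 was at 0.323 FPKM without injury and 16.2 FPKM at 4 dpi, and mcm5 at 0.448 and 16.1 FPKM. The 2 entries named rrm2, which encode the small subunit of ribonucleotide reductase, had levels of 0.380 and 18.8 FPKM on chromosome 20 and of 0.357 and 13.8 FPKM on chromosome 19. Both helicase subunits and both reductase copies were thus below 1 FPKM in uninjured tissue. The sliding clamp gene pcna started from a far higher level of 20.6 FPKM and reached 113 FPKM, the highest value of the list. Of the repair and checkpoint list, 5 of 32 symbols were listed, all higher. The exonuclease gene exo1 was at 0 without injury and 2.33 FPKM at 4 dpi, and was marked significant by the authors. The cyclin gene ccng1, which responds to DNA damage, stood at 37.5 and 101 FPKM.

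**Figure D2:**
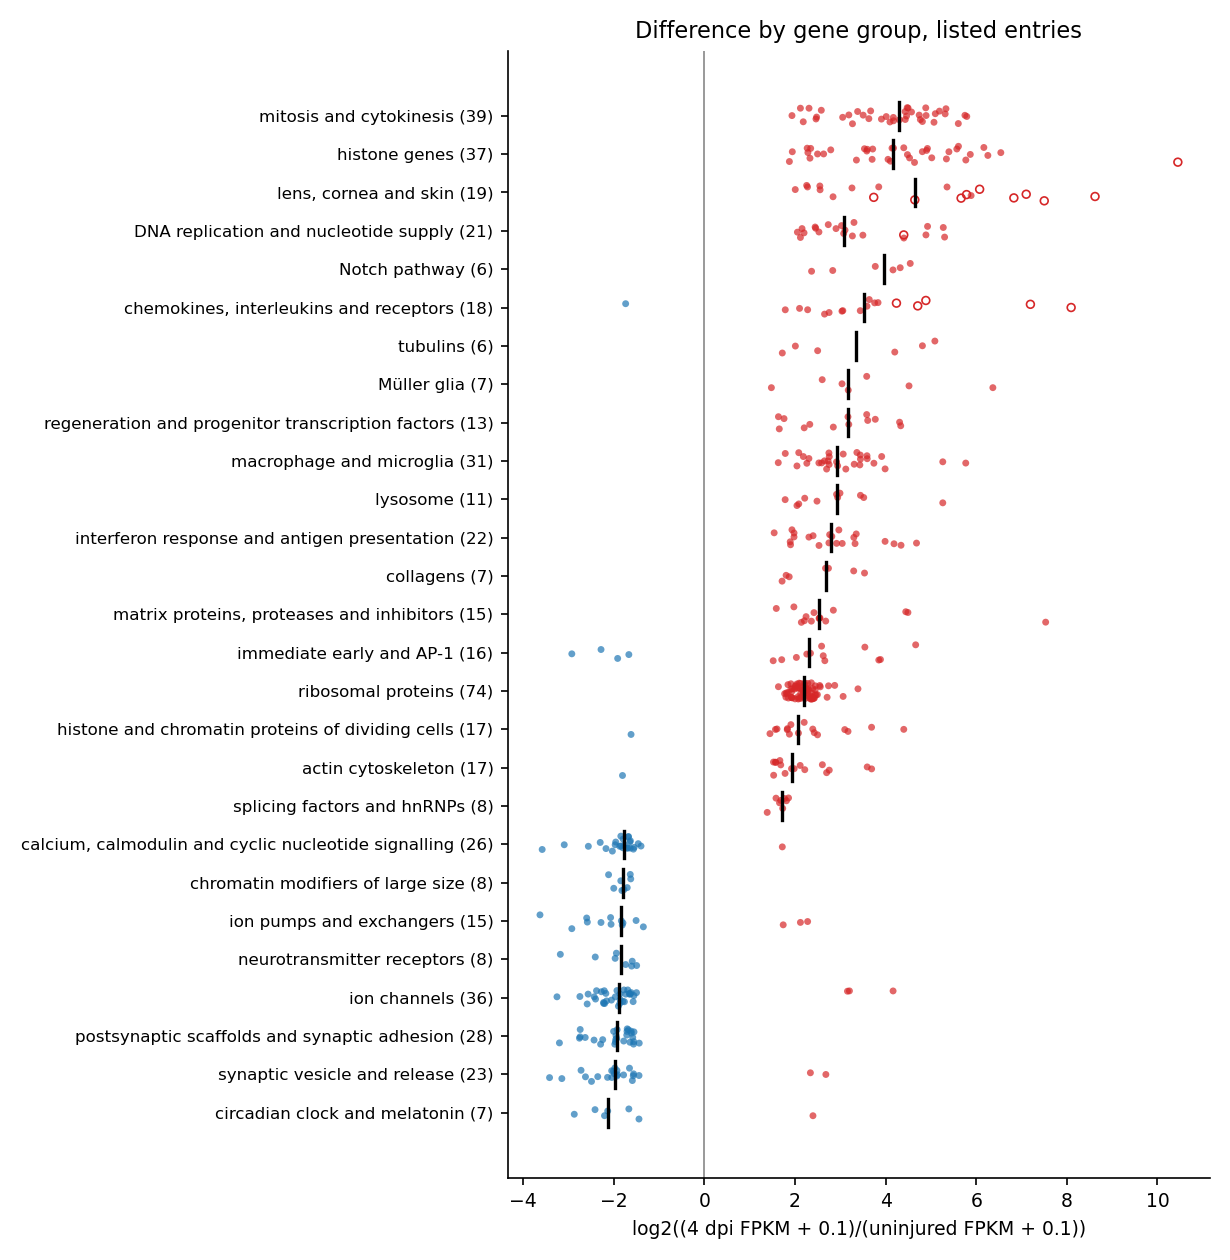
The log2 difference (x axis, with 0.1 FPKM added to both levels) of every listed member of 27 gene groups, 1 point per entry, red where higher and blue where lower at 4 dpi, open where 1 group was at 0 FPKM, with a black bar at the median and the number of entries in brackets. Groups of cell division, immunity, glia and protein synthesis lie to the right of 0, and groups of synapses, channels and calcium signalling to the left. Some members went the other way, and not all of them are named in the text.

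Histone genes supply the protein on which newly copied DNA is wound, and most are transcribed only during replication from gene clusters. The tables listed 37 entries annotated as histones, all higher, with a median log2 difference of 4.17 (4.16 without the entry at 0 in uninjured retina). Their summed level was 278 FPKM without injury and 4104 FPKM at 4 dpi. Of the 37, 34 lay on chromosomes 7 and 25 in 4 stretches (build GRCz10). Names in capitals are those of the human counterpart, as the tables give them. The longest stretch on chromosome 25, from 34542496 to 34649027, held 13 entries, with 1.73 to 11.7 FPKM without injury and 50.4 to 263 FPKM at 4 dpi. The second stretch of chromosome 25, from 35787201 to 35797781, held 5 entries, among them the H2B entry HIST1H2BA at 3.87 FPKM without injury and 304 FPKM at 4 dpi, the highest histone level at 4 dpi. An H4 entry beside it, HIST1H4D, was at 0 without injury and 139.9 FPKM at 4 dpi, and was the only entry annotated as a histone that the authors marked significant. On chromosome 7, the stretch from 5833513 to 6332794 held 12 entries and the stretch from 73595914 to 73636124 held 4, with 4 dpi levels of 15.5 to 273 and 19.5 to 238 FPKM. The 9 entries with a linker histone (H1) domain were at 1.48 to 10.4 FPKM without injury and 38.4 to 103 FPKM at 4 dpi. The same 4 stretches held 38 further listed entries, mostly without a protein name in the authors' annotation, of which 37 were higher. Among these were si:ch73-36p18.4 (0 and 47.9 FPKM) on chromosome 25 and si:ch73-368j24.14 (0 and 59.9 FPKM) on chromosome 7, both marked significant by the authors. The marked entry si:dkey-23a13.6 (0 and 29.5 FPKM) lay outside, at 5786430 to 5786936 on chromosome 7. Histone genes are near-identical copies, so the split of reads between neighbouring entries is uncertain. slbp, which encodes the protein that binds the stem loop of histone mRNA, was at 4.56 FPKM without injury and 19.2 FPKM at 4 dpi.

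**Figure D3:**
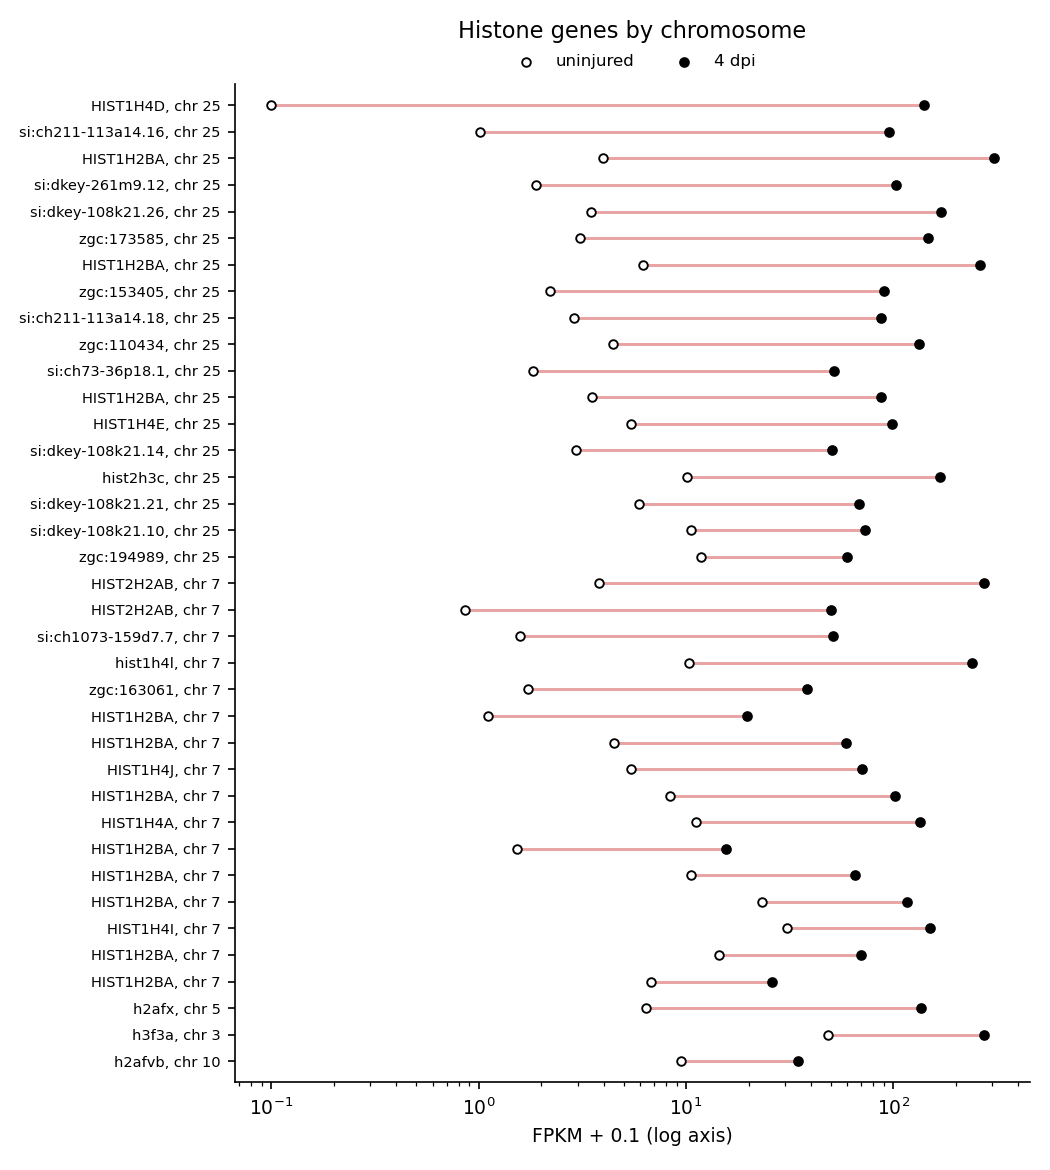
Level of the 37 histone entries in uninjured retina (open circles) and at 4 dpi (filled circles), as FPKM + 0.1 on a log axis, ordered by chromosome and by size of the difference. Every entry is higher at 4 dpi, and the largest difference is that of HIST1H4D, which was at 0 in uninjured retina.

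Proteins that package or modify chromatin split by kind. Of 32 symbols of chromatin proteins of dividing cells, 17 were listed, 16 higher and 1 lower, with a median of 2.08. The nucleosome-binding gene hmgn2 was at 40.8 FPKM without injury and 350 FPKM at 4 dpi, and the variant histone gene h2afx at 6.31 and 135 FPKM. The DNA methylation partners uhrf1 (0.448 and 6.98 FPKM) and dnmt1 (2.76 and 12.0 FPKM) were listed higher, as was the deacetylase gene hdac1 (30.4 and 83.1 FPKM). The member that went the other way was hmga1b, at 59.8 FPKM without injury and 19.4 FPKM at 4 dpi, whereas its paralog hmga1a, a DNA-bending protein gene, was at 52.8 and 243 FPKM. The 2 paralogs had similar levels in uninjured tissue and opposite directions at 4 dpi. A list of large chromatin regulators held 8 listed genes of 50 symbols, all lower, against 39.1% of all listed genes, with a median of -1.80. It included the class IIa deacetylase gene hdac9b (171 and 39.4 FPKM) and the histone methyltransferase genes ash1l (45.6 and 12.6 FPKM), kmt2ca (24.3 and 6.80 FPKM) and setd1a (9.36 and 2.26 FPKM).

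Genes of protein synthesis were mostly listed higher. Of 89 cytosolic ribosomal protein symbols, 74 were listed, all higher, with log2 differences from 1.63 to 3.39 around a median of 2.19. Their summed level was 8117 FPKM without injury and 37315 FPKM at 4 dpi. The highest levels at 4 dpi were those of rps2 (139 and 930 FPKM) and rps20 (118 and 864 FPKM). The differences were thus similar in size from gene to gene, and 2 of the 74 reached a log2 value of 3. No mitochondrial ribosomal protein was listed, out of 75 symbols. Of the translation factors, 8 were listed higher, such as eef1g (65.6 and 365 FPKM), and EIF4G1, the scaffold of the cap-binding complex, was listed lower (16.0 and 2.49 FPKM). All 8 listed splicing factors and hnRNPs were higher, with a median of 1.71, as were the 4 listed subunits of the cytosolic chaperonin, a ring that folds actin and tubulin, with a median of 1.65. Both medians were below the 2.69 of all genes listed higher, and 60.9% of all listed genes were higher. The 4 listed proteasome genes were higher, and the larger differences belonged to psme1 (3.93 and 33.1 FPKM) and PSMB10 (3.22 and 23.2 FPKM), which serve antigen processing. No nuclear gene of the respiratory chain (106 symbols), no glycolysis gene (11 symbols) and no mitochondrially encoded gene (13 symbols) was listed in either direction.

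The RNA that guides secreted proteins to the endoplasmic reticulum, annotated as Metazoa_SRP, had 11 entries on chromosome 11, all higher. The highest was at 678 FPKM without injury and 4487 FPKM at 4 dpi, and 8 of the 11 were at 0 in uninjured retina. Both entries of U3, the RNA that guides cutting of ribosomal RNA precursors, were higher, at 317 and 2735 FPKM for the copy on chromosome 1. The splicing RNA U2 was the entry of highest uninjured level among those listed, at 4937 FPKM, and was listed lower at 1035 FPKM. These families also consist of near-identical copies, so values of single copies are uncertain.

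Tubulins and genes of axon growth were listed higher. Tubulins are the subunits of microtubules, and several copies are switched on in zebrafish neurons that regrow axons. All 6 listed tubulin genes, of 19 symbols, were higher, with a median of 3.35. The largest level at 4 dpi was that of tubb2b, at 88.7 FPKM without injury and 292 FPKM at 4 dpi. tuba1a stood at 14.2 and 263 FPKM, tubb5 at 7.87 and 224 FPKM, and tuba8l at 1.82 and 65.3 FPKM. tubb5 was therefore 28.4-fold higher and tubb2b, which began from a higher level, 3.29-fold higher. Of 37 axon growth symbols, 14 were listed, 11 higher and 3 lower. The growth cone gene gap43 was at 3.89 and 45.5 FPKM, the microtubule regulator gene stmn1a at 1.47 and 44.1 FPKM, and alcamb, an adhesion gene of retinal axons, at 1.38 and 23.9 FPKM. The members listed lower were the guidance receptor genes robo2 (25.8 and 9.11 FPKM) and plxna1a (8.72 and 2.44 FPKM) and the ligand gene SEMA4D (11.6 and 3.90 FPKM).

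Genes of glial filaments and of lipid binding were listed higher. Of 17 Müller glia symbols, 7 were listed, all higher, with a median of 3.17. apoeb, which encodes the lipid carrier apolipoprotein E, was at 234 FPKM without injury and 2111 FPKM at 4 dpi, and fabp7a, a fatty acid-binding protein of radial glia, at 52.0 and 1191 FPKM. The related gene fabp11a was at 1.54 and 135 FPKM. The glial filament gene gfap was at 10.2 and 84.5 FPKM, vim at 15.7 and 95.6 FPKM, and NES, a filament gene of neural progenitors, at 0.448 and 6.47 FPKM. Of the 10 listed entries with an intermediate filament domain, 8 were higher. The lower ones were synm (63.9 and 11.6 FPKM), which encodes a filament partner of vimentin, and iffo1b (11.7 and 3.12 FPKM).

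The listed members of a list of regeneration and progenitor transcription factors were all higher. Of 46 symbols, 13 were listed, with a median of 3.17. The 13 include nr2e3 and hmga1a, which are described with the rod genes and the chromatin proteins. insm1a, a repressor needed for zebrafish retina regeneration, was at 2.83 FPKM without injury and 35.0 FPKM at 4 dpi. The proneural gene ascl1b was at 1.39 and 7.35 FPKM, and atoh7, which zebrafish need to form ganglion cells, at 1.15 and 11.3 FPKM. foxn4, known from mouse in amacrine and horizontal cell formation, was at 0.453 and 4.87 FPKM. The stem cell factor gene sox2 started higher, at 7.54 FPKM, and was at 23.9 FPKM. sox11b was at 6.0 and 74.1 FPKM and was marked significant by the authors, while mych, a Myc family gene, was at 0.95 and 20.7 FPKM.

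Signalling genes of the Notch, cytokine and hedgehog pathways joined them. Notch receptors on 1 cell bind Delta ligands on its neighbour and keep progenitors from becoming neurons. All 6 listed Notch pathway genes, of 35 symbols, were higher, with a median of 3.97 (2.54 with a pseudocount of 1). The Delta ligand genes dla (0.269 and 6.51 FPKM), dlb (0.181 and 6.45 FPKM), dld (0.439 and 7.26 FPKM) and dlc (1.36 and 10.3 FPKM) came beside the target gene her4.2 (0.286 and 7.62 FPKM) and the receptor gene notch1a (1.80 and 9.70 FPKM). The ligands thus rested below 1.5 FPKM and lay at similar levels at 4 dpi. For notch1a the authors' log2 fold change was 2.43, and dividing it by their test statistic gave a standard error of 3.25. Its p-value in the authors' deposited table, 0.02585, does not follow from this ratio. All 7 listed growth factor and cytokine genes, of 49 symbols, were higher. The cytokine gene crlf1a was at 0.659 and 29.3 FPKM, the leptin receptor gene lepr at 0.642 and 16.0 FPKM, and socs3b, which encodes a feedback inhibitor of Jak/Stat signalling, at 2.39 and 28.8 FPKM. hbegfa, a ligand of the EGF receptor, was at 0.621 and 4.23 FPKM. The hedgehog genes smo (1.13 and 4.78 FPKM) and gli2a (1.30 and 5.01 FPKM) belong to the same list.

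Immediate early genes went in both directions. Of 41 symbols, 16 were listed, 12 higher and 4 lower, against 60.9% higher among all listed genes. The stress factor genes atf3 (0.952 and 26.6 FPKM), jun (6.21 and 90.9 FPKM), cebpb (0.861 and 14.1 FPKM) and junbb (12.8 and 65.4 FPKM) were higher. npas4a, which is switched on by neuronal activity, was at 5.30 FPKM without injury and 0.610 FPKM at 4 dpi, and the activity-linked gene egr1 was at 37.8 and 7.68 FPKM. The other members listed lower were klf9 (14.9 and 3.88 FPKM) and per1a (31.3 and 9.77 FPKM).

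The listed genes of macrophages and microglia were higher without exception. Their median level without injury was 2.71 FPKM, against 2.19 FPKM for all genes listed higher. Beside the summed levels given above, the 31 entries had a median log2 difference of 2.92, against 2.69 for all genes listed higher. A value of at least 3 was reached by 14 of the 31, and by 378 of the 893 genes listed higher (25.8% of all listed genes). lgals2a, a galectin gene, was at 1.24 FPKM without injury and 72.9 FPKM at 4 dpi, and the complement gene c1qc at 1.69 and 28.4 FPKM. mpeg1.1, the perforin gene that marks zebrafish macrophages, was at 2.71 and 18.5 FPKM, and the receptor gene csf1ra at 5.10 and 17.8 FPKM. The myeloid transcription factor genes spi1b (2.39 and 15.6 FPKM) and irf8 (1.73 and 10.4 FPKM) were listed higher too. lgals3bpb, a galectin-binding protein gene, was at 13.9 and 151 FPKM and was marked significant. All 11 listed lysosome genes, of 74 symbols, were higher, from ctsk, a collagen-cutting cathepsin (0.642 and 28.4 FPKM), to ctsd (57.1 and 197 FPKM). Of 53 symbols of the interferon response and antigen presentation, 22 were listed, all higher, with a median of 2.79. isg15 was at 5.49 and 88.5 FPKM, the antiviral gene mxb at 1.56 and 30.2 FPKM, and b2m, the light chain of class I molecules, at 19.7 and 134 FPKM. Of the chemokines, interleukins and their receptors, 17 were higher and IL1RL1 was lower (13.0 and 3.83 FPKM). The chemokine genes ccl34a.4 and ccl34b.8 were listed at 0 without injury, and at 4 dpi reached 14.6 and 27.2 FPKM.

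Matrix genes were listed higher whatever their length. Of 52 collagen symbols, 7 were listed, all higher, with a median of 2.67 (1.51 with a pseudocount of 1) and a median genomic span of 61.9 kb. col1a2 was at 1.01 FPKM without injury and 12.8 FPKM at 4 dpi, and col1a1b at 1.12 and 7.68 FPKM. The basement membrane collagen gene col4a4 was at 0.139 and 2.25 FPKM. All 15 listed matrix proteins, proteases and integrins were higher. mmp9, a secreted protease of the matrix, was at 0.363 and 85.7 FPKM, the highest level of that list. The fibronectin gene fn1a was at 0.828 and 20.1 FPKM, and mmp14b, a membrane-bound protease gene, at 0.869 and 21.7 FPKM. Among actin genes, 16 were higher, such as actb1 (109 and 665 FPKM) and capgb (0.667 and 9.81 FPKM), and the tropomyosin gene tpm4b was lower (92.0 and 26.2 FPKM). anxa2a, an annexin that binds membranes in a calcium-dependent way, was at 3.85 and 108 FPKM, while s100s was listed lower (21.0 and 5.78 FPKM).

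Several lens crystallins were listed at 0 in uninjured retina and were higher at 4 dpi. Of the 19 listed entries for lens, cornea and skin, 13 reached a log2 value of at least 3. The median, 4.64, rests on the entries at 0, and was 2.70 over the 10 entries above 0 in uninjured retina. crygm3 was at 0 without injury and 39.3 FPKM at 4 dpi, crygn1 at 0 and 18.0 FPKM, crygs4 at 0 and 13.7 FPKM, and cryaa at 0 and 11.3 FPKM. crygs2 (1.07 and 69.2 FPKM) and crybb3 (1.34 and 58.8 FPKM) were above 0 in uninjured tissue. crygm3 and crygs4 share 1 locus in the tables, so their reads may not be separable. The keratin genes krt8 (28.3 and 166 FPKM) and krt18 (7.27 and 43.0 FPKM), which surface epithelia and also other tissues express, were higher. The lens genes pitx3 (0 and 1.84 FPKM), a transcription factor gene, and cx44.1 (0 and 4.46 FPKM), a connexin gene, were marked significant. Whether lens tissue entered the dissected samples was not tested. Myelin genes were higher as well, with mbpb at 10.3 and 43.7 FPKM and mag at 11.4 and 35.3 FPKM.

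Genes of neuronal function were mostly listed lower. Their lists cover synapses, transmitter receptors and transporters, channels, pumps, calcium signalling, and ankyrins, spectrins and motors. Of the ankyrins, spectrins and motors, 6 were lower and 4 higher. The lists were combined after the values were seen, without the clock list. In the lists of neuronal function combined, 134 of 148 listed entries (background 39.1%) were lower, with a median log2 difference of -1.86 and a summed level of 5205 FPKM without injury and 1385 FPKM at 4 dpi. Of these entries, 52 reached a log2 value of at most -2, all of them among the 134 lower. Of all listed genes, 254 (17.3%) reached it, all among the 573 listed lower. Of 155 symbols of the synaptic vesicle and its release, 21 were lower and 2 higher. The synapsin gene syn2b, which tethers vesicles, was at 29.0 FPKM without injury and 2.62 FPKM at 4 dpi. The active zone scaffold genes pclob (86.5 and 9.67 FPKM), pcloa (79.8 and 12.0 FPKM) and bsnb (17.5 and 4.51 FPKM) were lower. So was cplx4b, a complexin gene of ribbon synapses, at 238 and 57.7 FPKM. The authors' log2 fold change was -3.16 for pclob and -2.73 for pcloa. Dividing each by their test statistic gave standard errors of 5.56 and 2.58. In the authors' deposited table the p-values were 0.03265 and 0.0144, which do not follow from these ratios. The entries listed higher were vamp5 (1.79 and 12.0 FPKM) and unc13d (0.252 and 1.68 FPKM), the latter known for granule release in blood cells.

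Ion channels give neurons their electrical behaviour. Of 243 symbols, 36 were listed, 33 lower and 3 higher, with a median of -1.88. kcnb2, a delayed rectifier potassium channel gene, had the highest level of any protein-coding gene listed lower, at 538 FPKM without injury and 56.2 FPKM at 4 dpi. The calcium channel gene cacna1ab was at 9.93 and 1.57 FPKM. For kcnb2 the authors' log2 fold change was -3.26, and dividing it by their test statistic gave a standard error of 1.85. Its p-value in the authors' deposited table, 0.0177, does not follow from this ratio. The 3 genes listed higher were ano9a (4.84 and 88.5 FPKM), a member of the anoctamin family, and the stretch-sensitive and osmosensitive channel genes piezo1 (0.353 and 3.94 FPKM) and trpv4 (0.259 and 3.20 FPKM). All 8 listed transmitter receptor genes were lower, among them GABRA4 (13.2 and 1.37 FPKM), gabbr1a (17.1 and 3.14 FPKM) and gria4a (29.5 and 7.60 FPKM). Of the pumps and exchangers, 12 were lower and 3 higher. slc8a2b, a sodium-calcium exchanger gene, stood at 22.2 and 1.70 FPKM and the calcium pump gene atp2b2 at 38.0 and 6.18 FPKM. Among the 3 higher, the bicarbonate transporter gene slc4a7 was at 2.41 and 8.27 FPKM, and slc4a2a at 0.399 and 2.32 FPKM.

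All 28 listed scaffolds and adhesion genes of the synapse, of 204 symbols, were lower, with a median of -1.93. nrxn1a, a presynaptic neurexin gene, was at 52.3 FPKM without injury and 17.7 FPKM at 4 dpi. The receptor phosphatase gene ptprsa was at 30.0 and 4.40 FPKM, shank3a, a postsynaptic scaffold gene, at 25.3 and 3.99 FPKM, and syngap1b at 11.6 and 1.64 FPKM. Of the 26 listed genes of calcium, calmodulin and cyclic nucleotide signalling, 25 were lower. camkk1b, a kinase that activates calmodulin kinases, was at 184 and 21.5 FPKM, and pde10a, a phosphodiesterase gene, at 19.0 and 3.13 FPKM. nfatc3a, a transcription factor gene controlled by calcineurin, was at 36.7 and 2.97 FPKM and was marked significant by the authors. The member listed higher was arhgef2 (2.36 and 7.99 FPKM). Among the 43 listed entries with a protein kinase domain, 30 were lower, against 39.1% of all listed genes, and 13 were higher. The latter included the spindle checkpoint kinase gene ttk (0.493 and 10.0 FPKM) and the growth factor receptor gene met (0.191 and 3.84 FPKM).

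Few genes of photoreceptor function were listed. Both listed cone genes, of 26 symbols, were lower: guca1d (165 and 48.4 FPKM) and guca1e (77.0 and 13.6 FPKM) encode activators of the guanylate cyclase of phototransduction. The 4 listed genes shared by rods and cones were lower too, among them impdh1a, an enzyme gene of guanine nucleotide synthesis (238 and 52.9 FPKM), and crb1, a polarity gene (55.6 and 17.4 FPKM). The rod transcription factor gene nr2e3 was listed higher, at 11.9 and 37.2 FPKM, and was the only listed member of 17 rod symbols. Of the bipolar genes, cabp2a (183 and 35.3 FPKM) and trpm1b (48.3 and 13.2 FPKM) were lower. The 4 listed ganglion cell symbols were the tubulin genes tubb5, tuba1a and tuba1b and gap43, which the tubulin and axon growth lists also hold. No amacrine or horizontal cell symbol of 19 was listed.

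The clock and sterol lists each held members in both directions. Of the 7 listed clock genes, the repressor genes per2 (111 and 15.0 FPKM), per3 (176 and 38.1 FPKM) and nr1d1 (55.0 and 10.2 FPKM) were among the 6 listed lower. For per3 the authors' log2 fold change was -2.21, and dividing it by their test statistic gave a standard error of 2.96. Its p-value in the authors' deposited table, 0.01965, does not follow from this ratio. aanat2, the gene for the melatonin synthesis enzyme, was listed higher, at 26.8 FPKM without injury and 141 FPKM at 4 dpi. The labels do not state at which time of day the retinae were taken. In the sterol list the synthesis genes fdft1 (33.8 and 2.62 FPKM), which encodes squalene synthase, and msmo1 (12.6 and 3.32 FPKM) were lower, as were the regulator gene srebf1 (54.6 and 16.1 FPKM) and the receptor gene ldlrb (8.96 and 2.08 FPKM). The lipid transport genes apoeb, apoc1 (25.8 and 266 FPKM) and abca1b (0.697 and 7.21 FPKM) were higher. Among the 7 listed members of this list, the synthesis genes, srebf1 and ldlrb were thus lower and the lipid transport genes higher.

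The authors marked 45 of the 1466 genes significant, 40 higher and 5 lower, all at p = 5e-05 and q = 0.0421 in the authors' deposited table. Of the 40, 32 were at 0 FPKM in uninjured retina. The other 8 were tubb5, anxa2a, jun, sox11b and lgals3bpb, described above, and 3 with clone-based names. Of these, zgc:123068 was at 13.1 and 255 FPKM, si:ch211-222l21.1 at 9.35 and 239 FPKM, and zgc:77517, which has an intermediate filament domain, at 4.41 and 64.4 FPKM. The log2 fold change of anxa2a (chromosome 25, 33527666 to 33541952) was 4.81 in the authors' deposited table, and dividing it by their test statistic gave a standard error of 0.87. In the authors' deposited table that of jun (chromosome 20, 15653154 to 15655103) was 3.87 and that of tubb5 (chromosome 16, 10427991 to 10436718) was 4.83, and the same division gave 0.84 and 0.89. The 5 genes listed lower were nfatc3a, the solute carrier gene SLC45A4 (118 and 9.47 FPKM), si:dkey-18a10.3 (128 and 13.8 FPKM), the noncoding si:ch211-160d14.12 (2.30 and 0 FPKM) and the pseudogene CABZ01045617.1 (96.2 and 0.938 FPKM). Among the genes at 0 without injury were CKAP2 (5.19 FPKM at 4 dpi), a gene of the mitotic spindle, and ube2t (4.43 FPKM), a ubiquitin-conjugating enzyme gene of DNA repair. Others were the crystallin genes crygm7 and crybgx, lect2l, mctp2b, the amino acid transporter gene slc6a14 and the complement gene c3a.1, all below 7 FPKM at 4 dpi. Of all 45, 21 had clone-based or accession-like names and 9 were not protein coding. The marked entry of highest level among the noncoding genes was si:dkey-6n3.3, a lincRNA at 0 and 79.5 FPKM. mki67, mmp9 and fabp11a, with larger fold changes than the 8 marked genes above 0, were not marked, with p-values of 0.00025, 0.0061 and 0.00715 in the authors' deposited table.

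**Figure D4:**
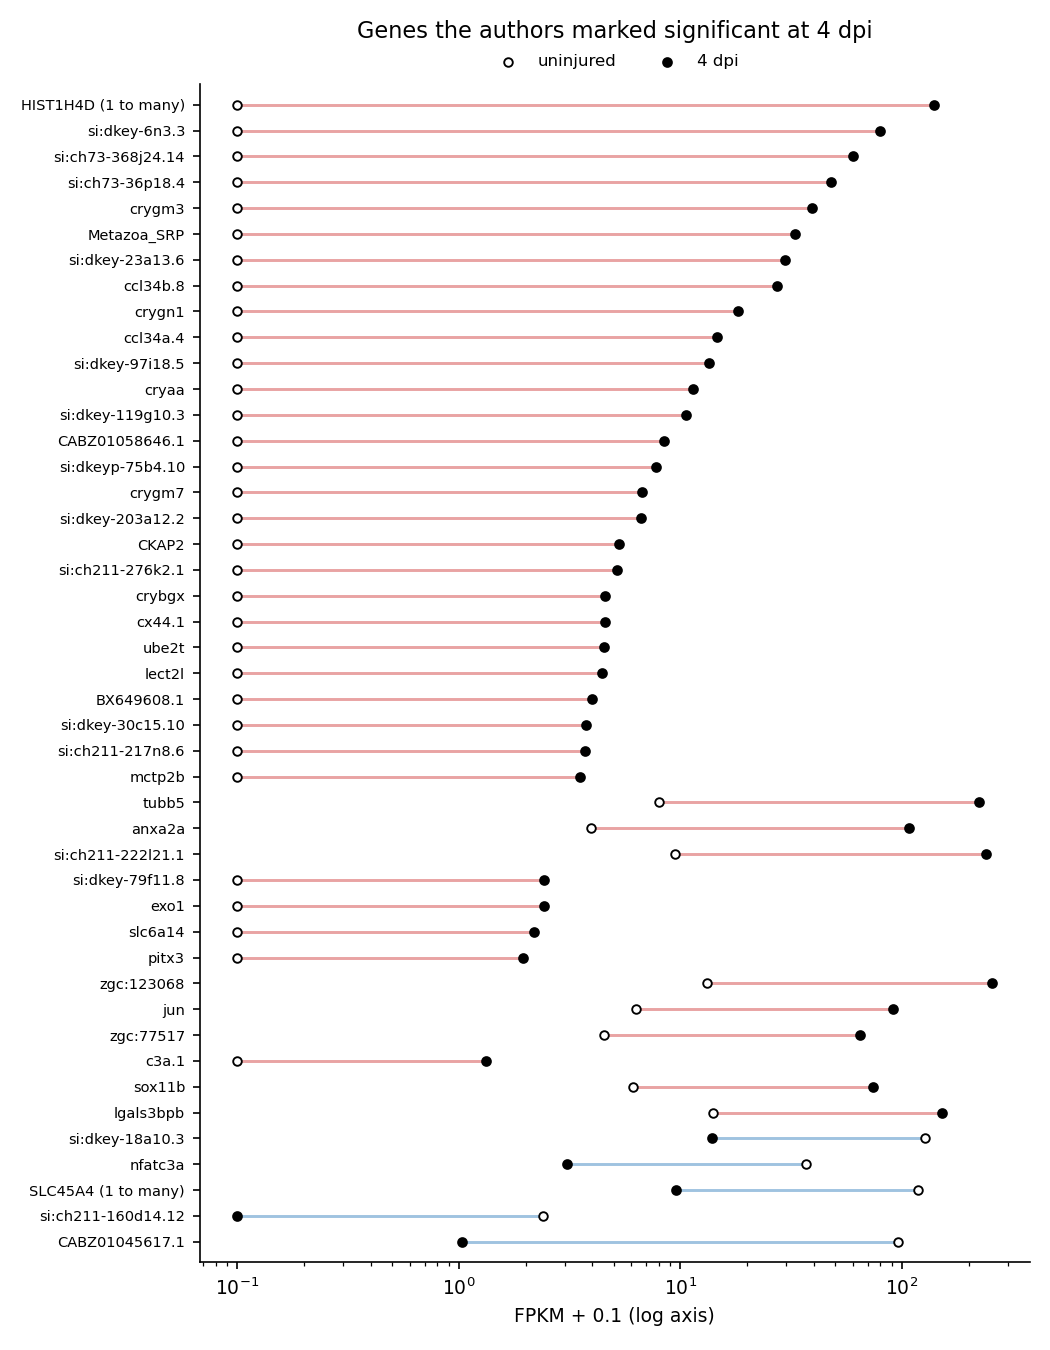
Level of the 45 genes that the authors marked significant, in uninjured retina (open circles) and at 4 dpi (filled circles), as FPKM + 0.1 on a log axis, ordered by the log2 difference. Open circles at the left edge mark the 32 genes listed higher that were at 0 FPKM in uninjured retina.

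For the marked genes above 0 in uninjured retina, the transcript tables of the other groups were searched for an entry of the gene with the same uninjured value. The comparisons share the uninjured sample, and a matched entry carries the same uninjured value in each. Whether the injured groups were scaled alike was not tested. The 4 dpi value is that of the whole gene, and the other injured values are those of single transcripts. Transcripts without a matched entry may count in the 4 dpi value only. How far this bears on the differences between the injured groups was not tested. Such an entry was found at 12 hours after injury for anxa2a and jun, and at 4 dpi with 100 µM valproic acid for these and 6 other genes. anxa2a was at 22.5 FPKM at 12 hours, 108 FPKM at 4 dpi and 129 FPKM with valproic acid, from 3.85 FPKM in uninjured retina. jun was at 147, 90.9 and 101 FPKM in the same order, from 6.21 FPKM. Of these 3 values, that of anxa2a was lowest at 12 hours and that of jun highest, with the same limit of gene against transcript. At 4 dpi without and with valproic acid, tubb5 was at 224 and 63.2 FPKM, sox11b at 74.1 and 46.1 FPKM, and lgals3bpb at 151 and 60.5 FPKM. Of the genes listed lower, SLC45A4 was at 9.47 and 17.2 FPKM, si:dkey-18a10.3 at 13.8 and 14.0 FPKM, and CABZ01045617.1 at 0.938 and 1.57 FPKM.

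The share of genes listed higher is given by level as a description. In 5 bins of equal size by mean level over both groups (the geometric mean, with 0.1 FPKM added), the share listed higher was 82.0%, 66.6%, 49.8%, 40.3% and 65.9% from the lowest bin to the highest. It was thus lowest in the fourth bin. Bins by the level of 1 group sort genes by a term of the ratio itself, so opposite trends follow from the binning. By uninjured FPKM the share was 100%, 89.4%, 52.6%, 25.9% and 36.5%, and an entry under 1 FPKM in uninjured retina could be listed only as higher. By FPKM at 4 dpi it went from 37.4% in the lowest bin to 95.6% in the highest. The highest bin of uninjured level began at 36.6 FPKM and held most of the ribosomal protein genes. Among the lowest log2 differences of named genes were also those of the transcription factor genes sox6 (30.4 and 2.84 FPKM) and esrrgb (64.8 and 6.21 FPKM), the sulfotransferase gene gal3st3 (6.04 and 0.398 FPKM) and the transporter gene slco5a2 (24.3 and 1.91 FPKM). The genes of highest level in each direction were noncoding RNAs, followed among the genes listed lower by kcnb2 and zgc:162144 (453 and 94.1 FPKM).

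The genes listed lower spanned more of the genome than those listed higher. The span was taken from the locus of each entry on GRCz10 and includes introns. Its median was 10.1 kb for the genes listed higher (quartiles 3.55 and 26.3 kb) and 47.4 kb for those listed lower (quartiles 15.9 and 114 kb). In 5 bins of equal size from the shortest to the longest span, the share listed higher was 84.7%, 76.1%, 69.3%, 53.9% and 20.5%. The shortest bin reached up to 4.18 kb and the longest began at 66.8 kb. Of the 194 genes longer than 100 kb, 167 were lower, and of the 393 genes shorter than 6 kb, 327 were higher. Across the 1466 genes, which are not independent replicates, Spearman's rho between span and log2 difference was -0.44. Within the genes listed higher it was -0.32, and within those listed lower 0.19, where a positive value means that the longer genes differed less.

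The same direction held when the ribosomal protein genes, the neuronal function lists or the genes of any list were set aside in turn. Without the ribosomal protein genes the share listed higher went from 83.5% in the shortest bin to 19.0% in the longest. Without the neuronal function lists it went from 86.4% to 34.5%, and in the 890 genes that belong to no list from 81.5% to 21.3%. The 37 histone entries, all higher and with a median span of 0.5 kb, were not set aside as a group. Some of them, such as HIST1H4D, are among the 890. Within 5 bins of mean level, the longest genes had the lowest share listed higher in each bin, with 64.3%, 32.3%, 14.6%, 5.49% and 14.8% from the lowest level to the highest. Among the longest genes listed lower was nrxn2a, a neurexin gene of 705 kb (33.6 and 8.60 FPKM). The longest genes listed higher were pard3bb, a polarity gene of 408 kb (0 and 1.91 FPKM), cnp, a myelin enzyme gene listed with 317 kb (8.65 and 60.0 FPKM), and piezo1 of 305 kb. Short genes listed lower included cplx4b with 4.70 kb and nr1d1 with 7.57 kb, and the collagens were long and higher. A locus can also cover neighbouring genes, as for 1 Metazoa_SRP entry with 284 kb beside 10 entries of 291 to 298 bases. How RNA selection or RNA quality bears on the relation with span was not tested.

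**Figure D5:**
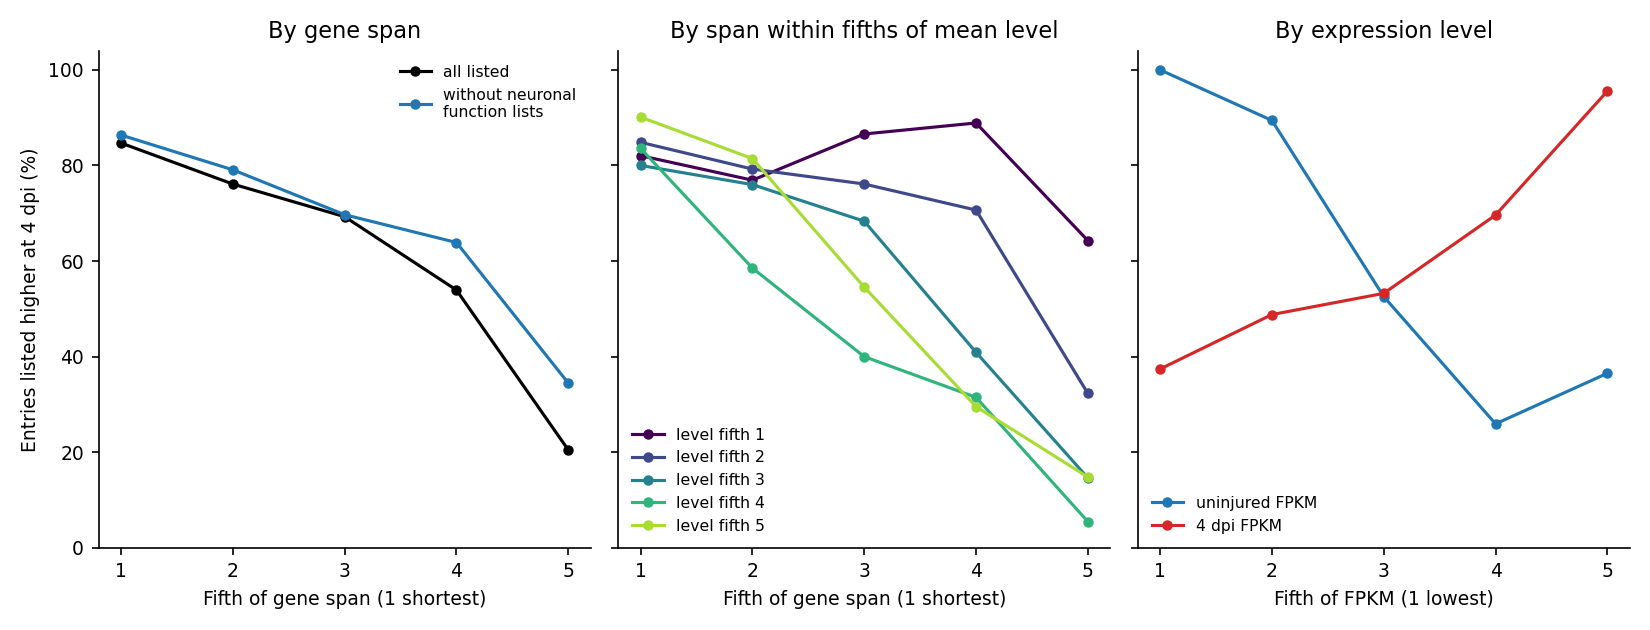
Share of listed genes that were higher at 4 dpi (y axis, %) in 5 bins of genomic span, for all listed genes and without the neuronal function lists (left), by span within 5 bins of mean level (middle), and in 5 bins of the level in uninjured retina or at 4 dpi (right). For all listed genes the share goes from 84.7% in the shortest bin to 20.5% in the longest.

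The authors' annotation columns group the same listed entries by gene ontology term, so they are not independent of the lists. Of 65 gene ontology terms with at least 10 listed genes, 14 had all their genes listed higher and 1, sodium ion transmembrane transport, had all 10 listed lower. The terms all higher included nucleosome assembly (13 genes, median log2 difference 4.81), collagen trimer (10 genes, 2.71), inflammatory response (10 genes, 2.70) and protein folding (11 genes, 1.72). Intracellular signal transduction had 18 of 26 genes lower, and translation had 58 of 59 higher. Other terms were mixed, such as calcium ion binding (26 higher and 30 lower) and integral component of plasma membrane (21 higher and 15 lower). By chromosome, the share listed higher lay between 38.8% on chromosome 10 and 78.0% on chromosome 9, and chromosome 7 held the most entries, 120, of which 86 were higher.

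Entries without a protein product numbered 74, 35 higher and 39 lower. The 9 entries with a reverse transcriptase domain, as found in mobile elements, were all lower, from 2.37 to 87.0 FPKM without injury and from 0.322 to 14.4 FPKM at 4 dpi. The microRNA gene dre-mir-96, a family member expressed in sensory cells, was at 22.8 FPKM without injury and 0 at 4 dpi. On chromosome 14, 8 neighbouring entries annotated as protease inhibitors were all at 0 without injury and at 1.04 to 7.96 FPKM at 4 dpi. Of these, si:dkey-203a12.2 (6.57 FPKM at 4 dpi) was marked significant by the authors. No replicate value exists against which any of these differences could be set.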

How the data were processed

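Whole-retina RNA of 2 groups was compared, uninjured and 4 dpi, with 1 GEO sample per group taken from the labels. The submitters' processing notes name TopHat2 2.1.0, Bowtie2 2.2.2, Cufflinks 2.2.1 and the build GRCz10. The authors deposited 6 tables, of which the higher and the lower gene table at 4 dpi are the main data. Each row carries 1 pooled FPKM value per group, computed by the authors, per the file headers. Also deposited are the p-value, q-value and log2 fold change and a test statistic, which is a score made by the authors. A standard error was derived as that log2 fold change divided by the statistic. Its median was 0.97 over 780 entries listed higher and 0.82 over 558 listed lower, and entries at 0 have none. The deposited p-values need not follow from this ratio, as for pclob, with a ratio of 5.56 and p = 0.03265 in the authors' deposited table. The same holds for further entries named above, among them kcnb2, impdh1a, ash1l, kmt2ca, nrxn1a and nrxn2a. The values show a filter: each deposited p-value was at most 0.05, and the group with the higher level exceeded 1 FPKM. The number of genes tested, the depth per library and the strand setting of the counting are not given in the sources used here.

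From these values log2((4 dpi FPKM + 0.1)/(uninjured FPKM + 0.1)) was computed with Python 3.11.15 and pandas 2.3.3, and checked on simulated data. No test was run, since there is 1 value per group. Spans come from the deposited loci, with starts printed 1-based. The members and the 57 gene lists were chosen with earlier results of these data known. Symbol counts per list are symbols in the gene name table that match the list, and nothing is known here of members that the tables do not list. After the values were seen, 4 symbols were taken out of lists that had caught them by name pattern only. Genes were named by rule: the 10 highest and 10 lowest differences with an established symbol and a level of 5 FPKM or more in either group, up to 4 members per list by size and up to 2 by FPKM, every gene marked by the authors, the 3 longest and the 3 of highest FPKM in each direction, and members that went against their list. Further members with well-known roles were named after their values were seen. The alternatives tried were pseudocounts of 1 and 0.01, filters on FPKM and on the authors' p, 1 entry per symbol, 3 bins in place of 5, and the ribosomal protein genes left out. Some genes that this rule names are not reported here.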

Additional observations from a re-analysis of the deposited data

How the results depend on the processing

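The 893 genes listed higher became 592 when at least 1 FPKM was required in both groups, and 357 higher beside 123 lower when the authors' p was at most 0.01. The share listed higher, 60.9%, was 53.3% with at least 1 FPKM in both groups, 57.7% with at least 5 FPKM in the higher group, 74.4% with p of at most 0.01 and 58.3% without entries at 0 FPKM (chosen after seeing the data). The median log2 difference of the genes listed higher, 2.69, was 2.09 with a pseudocount of 1, 2.33 and 2.53 under those FPKM filters, 3.54 with p of at most 0.01, 2.78 without ribosomal protein genes and 2.52 without entries at 0. That of the genes listed lower, -1.94, was -1.70 with a pseudocount of 1 and -2.49 with p of at most 0.01. The 378 genes at log2 of at least 3 became 169 with a pseudocount of 1, 145 with at least 1 FPKM in both groups and 226 with p of at most 0.01. The 254 genes at log2 of at most -2 became 143 with a pseudocount of 1 and 115 with p of at most 0.01. In the lowest bin of uninjured level the share listed higher was 95.7% with 3 bins, and in the highest bin 59.4% with p of at most 0.01. In the shortest bin of span it was 97.9% with p of at most 0.01, and in the longest bin 11.7% and 14.8% under the FPKM filters, 31.2% with p of at most 0.01 and 32.8% with 3 bins. The median span of the genes listed higher, 10.1 kb, was 9.20 kb with at least 1 FPKM in both groups and 6.18 kb with p of at most 0.01. Lists of 3 or more listed members with both directions numbered 18, and 6 with p of at most 0.01. The median of the sterol list turned to 3.20 with p of at most 0.01, and that of other solute carriers to -1.46 with at least 1 FPKM in both groups. Both lists hold members of both directions, and these filters take out members. Counting each result once per alternative, 112 of 142 summary values and 323 of 346 list medians stayed within the limits set, 30 and 21 moved past them, and 2 list medians reversed. Leaving out the lens, cornea and skin markers, also chosen after seeing the data, moved none of the summary values past them. No paired analysis was possible because each group has 1 pooled value and no replicate numbers are shared. For the same reason no replicate could be left out. Depth is unknown, so the precision of low FPKM values cannot be given.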
